A study of Mus musculus with 36 samples.

Results

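The genes described here are the nuclear-encoded genes of oxidative phosphorylation in the mouse hippocampus, 84 of the 24058 genes with read counts. They were taken by symbol alone, as every gene whose name starts with Nduf and a subunit letter and number, with Uqcr, with Cox4 to Cox8 or with Atp5, together with Sdha, Sdhb, Sdhc and Sdhd. No measured value is part of this rule, but the members were chosen with earlier results of these data known. Complex I contributed 35 genes, complex II 4, complex III 8, complex IV 19 (Ndufa4 and Ndufa4l2 counted among them) and complex V, the ATP synthase, 15. The remaining 3, Atp5s, Atp5sl and Cox7a2l, match by name but encode an assembly or coupling factor and not a structural subunit. The 36 libraries were TRAP-seq (RNA bound to affinity-purified, tagged ribosomes) and RNA-seq of total RNA from hippocampal mini-slices, which hold CA3 to CA1 without the dentate gyrus. The slices came from C57BL/6 mice of both sexes, 8 to 12 weeks old by the methods and within narrower limits elsewhere in the study's text, that carried 1 copy of the RiboTag allele and 1 of a Camk2a-cre transgene, so that Cre expressed in forebrain excitatory neurons put the ribosome tag there. Slices were treated to induce chemical LTP, the long-lasting strengthening of synapses, or were given vehicle (basal), and were collected after 30, 60 or 120 min. Each of the 12 groups of population, treatment and time had 3 replicates of 4 pooled mice. Basal and LTP slices of a replicate came from the same mice, both carried both alleles, and the TRAP-seq and RNA-seq libraries of a replicate came from 1 homogenate.

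Oxidative phosphorylation is the chain of enzymes in the inner mitochondrial membrane that passes electrons from NADH (complex I) and succinate (complex II) through complexes III and IV to oxygen, and uses the proton gradient built on the way to make ATP (complex V). Most subunits are encoded in the nucleus, translated by cytosolic ribosomes and imported. In neurons this pathway provides most of the ATP spent on ion pumping and synaptic transmission. Several complex IV subunits exist as a widely used form and a form largely restricted to heart, skeletal muscle, testis, lung or vascular cells.

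Total reads per library ranged from 21265627 to 52459224. The basal TRAP-seq libraries of 120 min stood apart: Rn45s, the ribosomal RNA precursor, took 40.6% to 61.4% of their reads, highest in replicate 2, against at most 14.1% in any other library. Libraries were sequenced as single reads at 30 min and as paired reads at 60 and 120 min, so time and read type cannot be told apart in comparisons with 30 min. The list of excitatory neuron markers had a median log2 ratio of TRAP-seq over RNA-seq of 0.65 in basal slices at 30 min, 7 of its 10 genes being higher and none lower. Markers of astrocytes, oligodendrocytes, microglia, endothelial and mural cells were lower, 10 of 10 in each list, with medians from -4.25 to -3.49. Interneuron markers were lower in 8 of 10 and higher in 1. No marker was at 0 in every library. Summed over its list, the astrocyte level was 6177 to 6785 CPM in basal RNA-seq and 381 to 662 CPM in basal TRAP-seq.

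The 84 genes took a larger part of the ribosome-bound RNA than of the total RNA. Of the reads without Rn45s, they took 0.946% to 1.04% in the 9 basal RNA-seq libraries. In basal TRAP-seq they took 1.45%, 1.47% and 1.49% at 30 min, 1.24%, 1.39% and 1.33% at 60 min, and 1.06%, 0.732% and 1.16% at 120 min for replicates 1, 2 and 3. The TRAP-seq libraries of 30 and 60 min all lay above every basal RNA-seq library, while replicate 2 of 120 min lay below them. Compared per length of transcript, as reads per kilobase scaled to library size without Rn45s (RPKM), the highest levels in total RNA at 30 min were those of Atp5b (643 ± 20.6, SD, n = 3), the catalytic beta subunit of ATP synthase, Cox4i1 (592 ± 24.6), the widely expressed form of the regulatory subunit 4 of complex IV, and Cox8a (572 ± 100.4), a small complex IV subunit. Sdha, the flavoprotein of complex II that oxidizes succinate, stood at 124 ± 2.5, and Ndufs1, the largest subunit of complex I, at 61.3 ± 1.9. The median level of complex V members was higher than that of complex II, 151 against 81.0 over the 9 basal RNA-seq libraries. The ranges overlapped, with 13.1 to 618 in complex V and 21.9 to 122 in complex II. The median of complex I was 86.0. Cox8c had 0 reads in every library, and Cox8b, the muscle form of subunit 8, had at most 9 reads in a basal library. Both were never tested.

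The first comparison asks which of these transcripts were over- or under-represented on the ribosomes of Camk2a-cre neurons relative to the whole slice, in the basal state. At 30 min 66 of the 81 tested members were higher by TRAP-seq (edgeR quasi-likelihood test, false discovery rate under 0.1 and log2 ratio beyond 0.4) and 4 were lower, where 29% and 32.7% of all genes tested were called higher and lower. Their median log2 ratio was 0.87, against a median near 0 over all genes. At 60 min 62 of 81 were higher and 4 lower (27% and 31.1% of all genes), with a median of 0.68. At 120 min 40 of 80 were higher and 4 lower (26.8% and 32.4% of all genes), with a median of 0.39. Groups of 3 libraries did not overlap, with TRAP-seq higher and lower, for 71 and 6 members at 30 min (39.7% of all genes in each direction), 71 and 6 at 60 min (38.8% and 38.9%) and 46 and 6 at 120 min (36% and 39.2%). Of the 79 members tested at all 3 times, 39 were called higher at each, 28 at some and 12 at none. In such bulk samples fewer cells of a type and less RNA per cell cannot be told apart. Nor can a higher content of a transcript in the tagged neurons be told apart from more binding to their ribosomes. The 120 min values rested on scaling: with library size without Rn45s in place of TMM factors, which moved the median of all genes at 120 min to -0.41, only 6 members were higher and 10 lower there. Without TRAP-seq replicate 2, 50 members were higher and 5 lower. For neither alternative is the share of all genes called given, so these counts cannot tell a shift of the members from a shift of many genes.

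**Figure D1:**
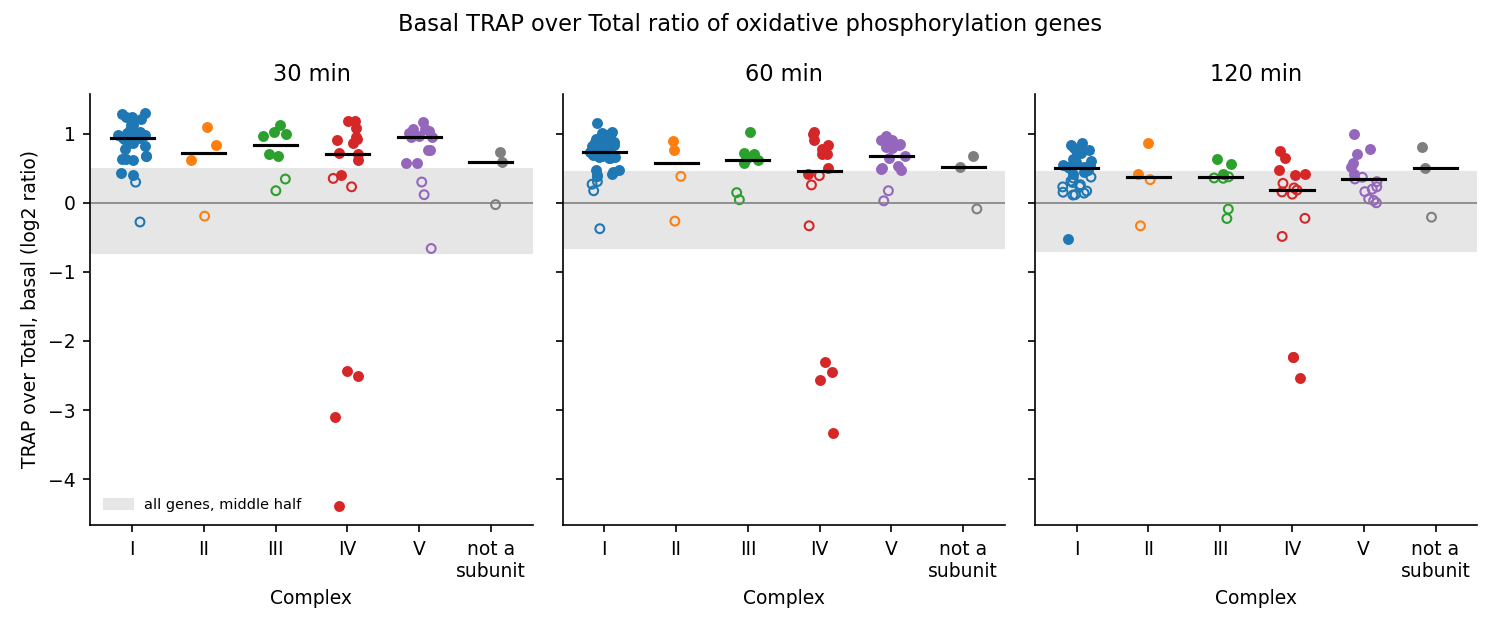
Log2 ratio of TRAP-seq over RNA-seq in basal slices (y axis) for each tested member, by complex and time after treatment. Filled points are called members, open points are not, black lines are medians and the grey band spans the quartiles of all genes. At 30 min the medians run from 0.71 in complex IV to 0.95 in complex V, and the points far below 0 in complex IV are tissue-restricted isoforms.

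In complex I 32 of the 34 tested members were higher at 30 min, with a median log2 ratio of 0.94 that was 0.73 at 60 min and 0.50 at 120 min. Ndufs4, an accessory subunit near the NADH-oxidizing end of the complex (chromosome 13, 114287795 to 114388258, minus strand, GRCm38), had 1867, 1764 and 1915 normalized counts by RNA-seq and 4292, 4628 and 4690 by TRAP-seq at 30 min. The lowest TRAP-seq library was well above the highest RNA-seq library, and the log2 ratio was 1.30 ± 0.06 (SE, adjusted p = 3.3e-09, edgeR). It was 1.16 at 60 min and 0.71 at 120 min. Ndufb6 and Ndufb2, small subunits of the membrane arm, had log2 ratios of 1.28 and 1.25 at 30 min, and Ndufa13, a membrane-arm subunit also known as GRIM-19, of 0.98.

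Among the 7 nuclear-encoded core subunits of complex I, which between them carry the flavin and the iron-sulfur clusters and are conserved from bacteria, the ratios differed. Ndufs7 and Ndufs8, which hold the last iron-sulfur clusters before ubiquinone, were higher at all 3 times, with log2 ratios of 1.05, 0.92 and 0.86 for Ndufs7 and 0.92, 0.69 and 0.77 for Ndufs8 at 30, 60 and 120 min. Ndufs3 and Ndufv2 were also higher at all 3 times (0.99 and 1.02 at 30 min). Ndufv1, which binds NADH, passed the threshold at 30 min alone (0.43). Ndufs1 (chromosome 1, 63143596 to 63176833, minus strand) went the other way. It had 5411, 5276 and 5665 normalized counts by RNA-seq and 4563, 4546 and 4367 by TRAP-seq at 30 min, groups that do not overlap. Its log2 ratio was -0.28 ± 0.05 at 30 min (adjusted p = 0.000208, inside the fold threshold), -0.38 at 60 min and -0.53 ± 0.07 at 120 min, where it was called lower (adjusted p = 3.85e-05, edgeR). The exons of Ndufs1 overlap a gene on the opposite strand, Ino80dos, and the library kit keeps no strand.

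Complex II was split within its own 4 subunits. Sdhb, the iron-sulfur subunit that takes electrons from Sdha, had 3762, 3653 and 3375 normalized counts by RNA-seq and 7526, 7969 and 7612 by TRAP-seq at 30 min, a log2 ratio of 1.10 ± 0.05 (adjusted p = 6.54e-09, edgeR). The ratio was 0.89 at 60 min and 0.87 at 120 min, and the groups did not overlap at any time. Sdha had 11666, 12208 and 12016 by RNA-seq and 10341, 10649 and 10382 by TRAP-seq. Here every TRAP-seq library was below every RNA-seq library, and the log2 ratio was -0.19 ± 0.04 (adjusted p = 0.00141), then -0.27 and -0.33, none past the fold threshold. Of the membrane anchors, Sdhd had a ratio of 0.83 at 30 min and Sdhc of 0.61, both called higher.

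In complex III 6 of 8 members were higher at 30 min (median 0.83). The small subunits led, with 1.12 for Uqcrb, 1.03 for Uqcr11 and 0.99 for Uqcrq. The 2 large core proteins of the matrix side were not called: Uqcrc1 had a log2 ratio of 0.34 and Uqcrc2 of 0.17. Uqcrc2 counts were 7091, 7093 and 7175 by RNA-seq and 8133, 8055 and 7903 by TRAP-seq at 30 min, and 4092, 4167 and 4188 against 3463, 3256 and 3885 at 120 min. TRAP-seq libraries were thus the higher ones at 30 min and the lower ones at 120 min (log2 ratio -0.23, adjusted p = 0.0119, edgeR, inside the fold threshold).

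In complex V 12 of 15 members were higher at 30 min (median 0.95). Atp5d, the delta subunit of the central stalk, had 4935, 4771 and 4452 normalized counts by RNA-seq and 9778, 10325 and 9661 by TRAP-seq, a log2 ratio of 1.07 ± 0.05 (adjusted p = 6.81e-09, edgeR). It kept a ratio of 0.91 at 60 min and 0.99 at 120 min. The 3 genes for the c subunit, which encode the same mature protein of the rotating ring, were all higher at 30 min, with 0.96 for Atp5g1, 0.57 for Atp5g2 and 1.17 for Atp5g3. Atp5g2 shares 87.1% of its 64-base windows with other genes, so its counts are uncertain. The most abundant members of the complex had small ratios: Atp5a1, the alpha subunit, 0.12, and Atp5b 0.30 at 30 min, neither called.

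In complex IV, which held the lowest ratios of all members, the range was wide. At 30 min 11 of its 17 tested members were higher and 4 lower. Cox5a, a matrix-side subunit that binds thyroid hormone metabolites, and Ndufa4, once assigned to complex I, each had a log2 ratio of 1.18. Cox4i1 had 15342, 14502 and 14365 normalized counts by RNA-seq and 24592, 23389 and 24540 by TRAP-seq, a ratio of 0.71 ± 0.05. At 120 min its TRAP-seq counts of 11664, 8777 and 12450 overlapped the RNA-seq counts of 9022, 8952 and 9162. The low value was again replicate 2, the library richest in Rn45s. Cox8a had a ratio of 0.40 at 30 min, just past the threshold, and 0.26 and 0.18 later. Of the 3 factors that are not subunits, Atp5sl (0.74) and Atp5s (0.59) were higher at 30 min and Cox7a2l, a supercomplex assembly factor, was not (-0.03).

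All 4 members called lower at 30 min were tissue-restricted isoforms, and their reads were few. None of them passed the count filter in the fits of TRAP-seq libraries alone. They entered this comparison through their RNA-seq reads, so a call could hardly be other than lower. The reads and intervals that follow describe them, and the calls add no support. Cox4i2, the form of subunit 4 found mainly in lung and in oxygen-sensing and mural cells, had 143 reads in the 9 basal RNA-seq libraries together and 13 in the 9 TRAP-seq libraries. Scaled to library size without Rn45s that is a TRAP-seq over RNA-seq ratio of 0.0901 (95% exact interval 0.0468 to 0.159, counting error only). Cox6a2, the heart and muscle form of subunit 6a that parvalbumin interneurons also use, had 440 and 45 reads, a ratio of 0.101 (0.0729 to 0.138). Ndufa4l2, a paralog of Ndufa4 that is induced by hypoxia and abundant in mural cells, had 216 and 37 reads, a ratio of 0.170 (0.116 to 0.241). Cox6b2, the testis form of subunit 6b, had 209 and 36 reads, a ratio of 0.171 (0.116 to 0.244). In the same comparison at 30 min the mural cell markers had a median log2 ratio of -3.49 and the interneuron markers of -3.67. The summed mural level was 111 to 128 CPM by RNA-seq and 14.0 to 15.6 CPM by TRAP-seq. The summed interneuron level overlapped, with 999.9 to 1055 CPM and 875 to 1069 CPM, and included Cck, a peptide gene that excitatory neurons also express and the 1 marker of that list called higher (1.47). The part of either cell type in the isoform ratios was not tested. Exons of Ndufa4l2 overlap Shmt2 and those of Cox6a2 overlap Itgad on the opposite strand.

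Cox6a2, Ndufa4l2 and Cox6b2 were called lower at all 3 times, with fitted log2 ratios of -3.10, -2.51 and -2.43 at 30 min (adjusted p from 8.31e-06 to 0.000156, edgeR), and Cox4i2 at the 30 and 60 min where it was tested. The limit set by the count filter holds for these calls at each time. The muscle form Cox7a1 (236 and 194 reads) and the testis form Cox7b2 (80 and 85 reads) were not called, with intervals of the ratio of 0.670 to 0.989 and 0.767 to 1.45. Cox8b had 36 and 6 reads. The ubiquitous partners of these isoforms were higher by TRAP-seq in 7 of 7 cases at 30 min, 6 of 7 at 60 min and 3 of 7 at 120 min.

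**Figure D2:**
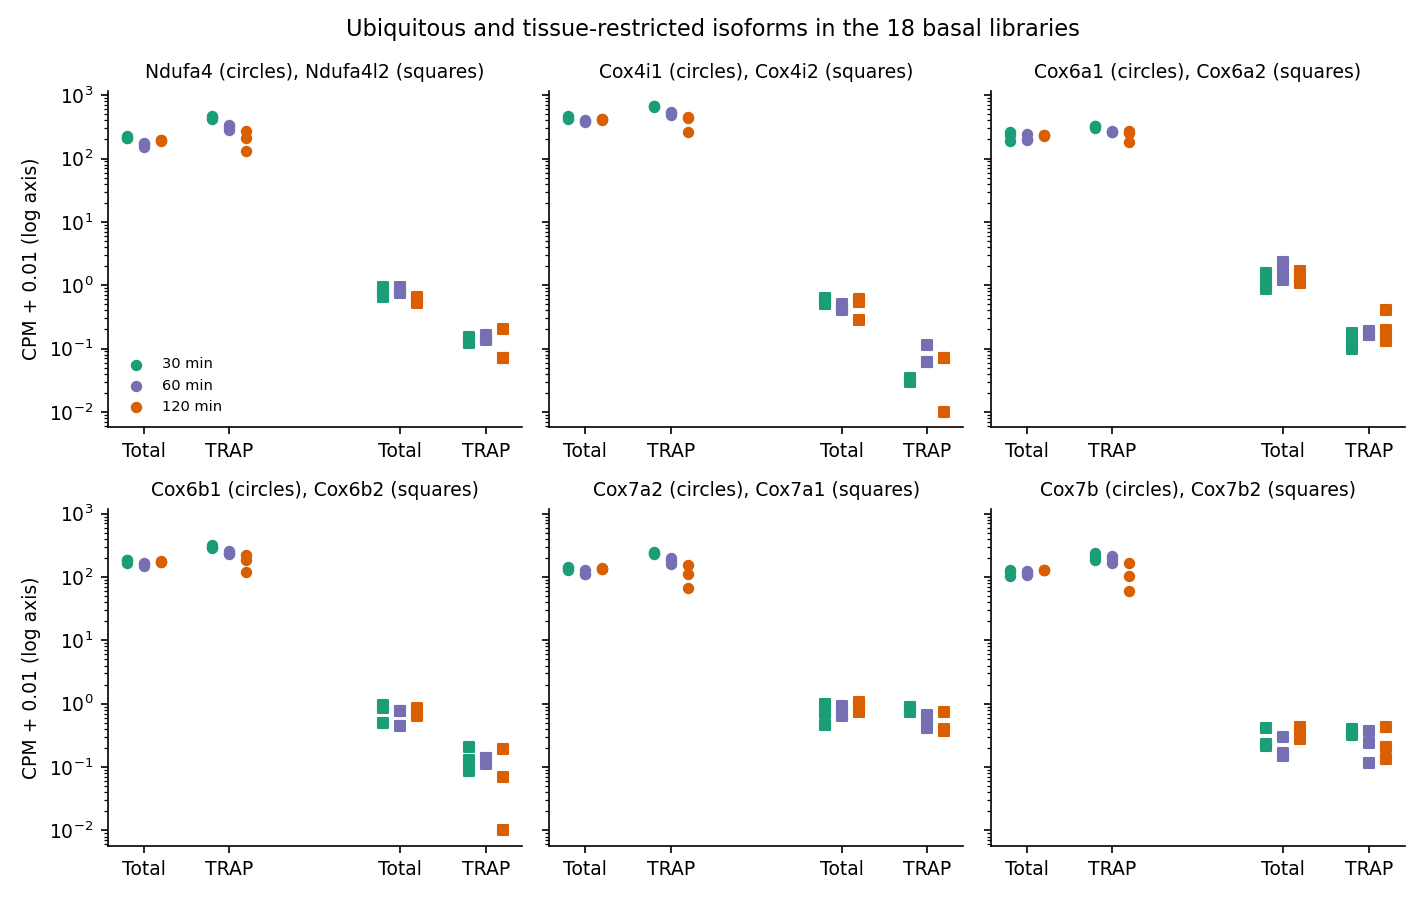
CPM + 0.01 (log axis) in each of the 18 basal libraries, by RNA-seq (Total) and TRAP-seq, for a ubiquitous complex IV subunit (circles) and its tissue-restricted isoform (squares), 1 pair in each panel and 1 colour for each time. Cox6a2 lies between 0.876 and 2.3 CPM by RNA-seq and between 0.089 and 0.394 CPM by TRAP-seq, whereas Cox7a1 overlaps between the 2 populations and its partner Cox7a2 lies at 67.7 CPM or above.

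Most of these transcripts are short, with a median length of 738.5 bases against 2953 over the genes tested at 30 min, and shorter transcripts had higher TRAP-seq over RNA-seq ratios among all genes. Across the genes above 8 CPM, Spearman's rho of length and ratio was -0.46, -0.42 and -0.35 at 30, 60 and 120 min. Across the 75 or 76 members above that level it was -0.31, -0.26 and 0.11; genes share libraries and are not independent replicates. The 19 members with transcripts over 1400 bases had a median ratio of 0.59 at 30 min and 12 were called higher, while those of shorter transcripts had a median of 0.95 and 54 were called. The large subunits Ndufs1, Sdha, Uqcrc2, Atp5a1 and Atp5b belong to the long group. With offsets for length and GC content in the fit, the median fell to 0.50, 0.40 and 0.28, and 48, 42 and 24 members were called higher at 30, 60 and 120 min. How many of all genes were called with these offsets is not given, so whether the members exceed that share cannot be read from these counts.

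**Figure D3:**
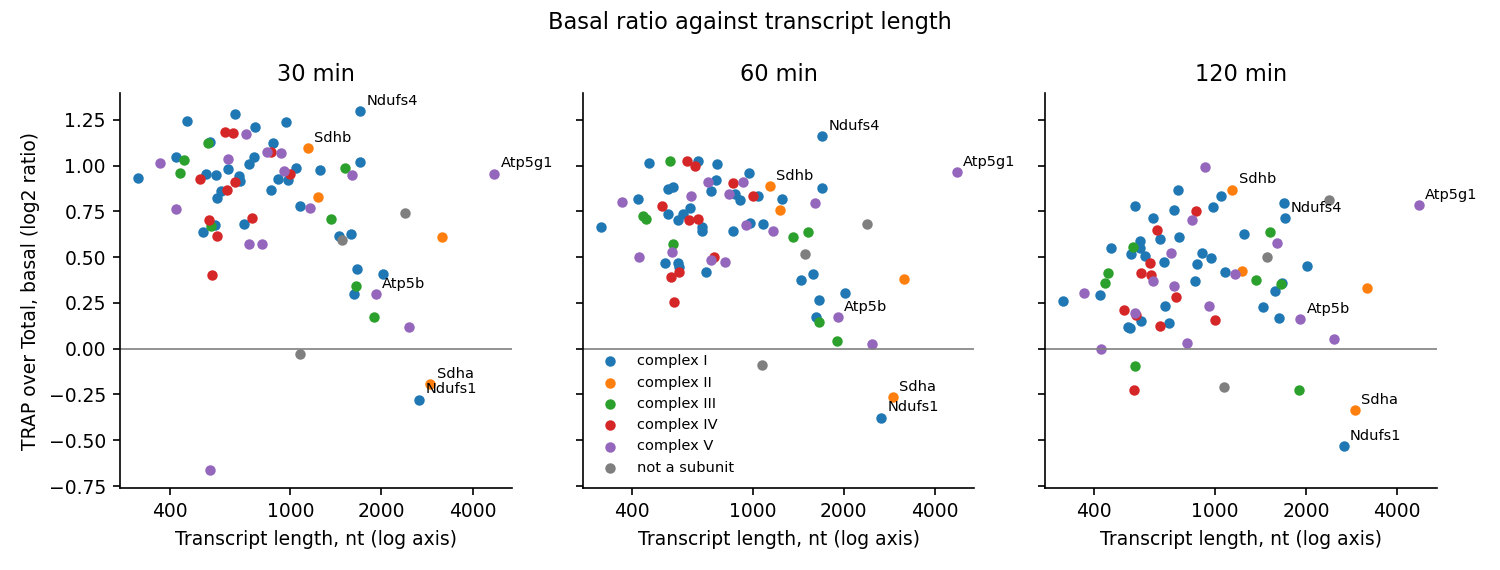
Log2 ratio of TRAP-seq over RNA-seq in basal slices (y axis) against transcript length in nucleotides (log axis) for the tested members without the tissue-restricted isoforms, by time, coloured by complex, with 6 members named. Spearman's rho over the members above 8 CPM is -0.31, -0.26 and 0.11.

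Other lists of genes were read in the same comparison. Cytosolic ribosomal proteins, with a median length of 805 bases, had a median log2 ratio of -0.05 at 30 min (4 higher and 12 lower of 79), -0.12 at 60 min and -0.49 at 120 min, when 46 of 80 were lower. Proteasome subunits, with a median length of 1541 bases, had medians of 0.69, 0.59 and 0.37. No test of the difference between these lists was made. Assembly factors of the respiratory complexes were higher in 30 of 40 cases at 30 min and lower in 1, with a median of 0.66. Examples are Coa3 (1.21), which stabilizes newly made Cox1, and Ndufaf3 (1.02), an early complex I factor, and the exception was Coa5 (-0.48). Of the 9 measured carriers and subunits outside the symbol rule 7 were higher, among them Atpif1 (1.11), the inhibitor of ATP synthase, and Cycs (1.11), cytochrome c.

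The citric acid cycle and pyruvate dehydrogenase genes, which feed the chain, had a lower median of 0.28 at 30 min. Of these 18 genes 7 were higher and 3 lower, where 29% and 32.7% of all genes were. Idh3b (0.68), Suclg1 (0.63) and Dlat (0.62) were higher, and Suclg2 (-3.43), the subunit of the GTP-forming succinyl-CoA synthetase, and Pcx (-1.05), pyruvate carboxylase, were among the lower ones. Of 13 regulators of mitochondrial biogenesis 5 were higher at 30 min and none lower (1 lower at 60 and 120 min). Among the higher ones were Tfam (0.83), which packages and transcribes mitochondrial DNA, and Esrra (0.73), a nuclear receptor that drives respiratory genes. Whether these small lists differ from the 29% and 32.7% of all genes was not tested. Mitochondrially encoded subunits were not analysed here.

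Many promoters of these genes are known to be bound by NRF1, the GABP proteins of the ETS family and YY1, and because most members were higher in this ratio their promoter letters were read from RefSeq (GRCm38.p6, 250 bases before to 50 bases after each start). A promoter was found for 67 members, 73 promoters in all. The NRF1 core CGCATGCG was in 8 of these 73 (10.96%) and in 1.87% of all 32851 promoters, both strands searched. The YY1 core AAGATGGC was in 16.4% and 2.75%, the GABP site CCGGAAG in 20.5% and 8.86%, the SP1 site GGGCGGG in 34.2% and 25.6%, and TATAAA in 8 of the 73 and 13.6% of all. A match is a description of these letters and not a bound site. The 4 windows shown hold an NRF1 core and stand for 4 of the complexes, written along the gene's strand with the core in capitals:
Ndufa8, complex I, chr2:36049329-36049358, minus strand: gtcgctggagaCGCATGCGcagatggtacc
Uqcrc1, complex III, chr9:108936668-108936697, plus strand: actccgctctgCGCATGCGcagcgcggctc
Cox6a1, complex IV, chr5:115349101-115349130, minus strand: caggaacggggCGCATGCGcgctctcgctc
Atp5k, complex V, chr5:108434430-108434459, minus strand: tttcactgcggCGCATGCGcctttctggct
The centre of the core lies at -5, 35, -157 and -45 bases from the start in the order of the list. The basal log2 ratios of these 4 genes at 30 min were 0.87, 0.34, 0.61 and 1.01.

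The second comparison asks whether LTP changed these transcripts. No member was called in either direction by TRAP-seq or RNA-seq at 30, 60 or 120 min with edgeR, and none with DESeq2. By TRAP-seq, 0.358% of all genes were called higher and 0.0351% lower at 30 min, 0.41% and 0.0614% at 60 min, and 1.37% and 0.268% at 120 min. By RNA-seq the shares were 0.113% and 0.00664%, 0.212% and 0.0128%, and 1.26% and 0.111%. With p under 0.05 before adjustment, TRAP-seq gave 1 member higher and 10 lower at 30 min (7.35% and 5.59% of all genes), 3 and 2 at 60 min (6.37% and 6.33%) and 0 and 2 at 120 min (7.88% and 4.49%). RNA-seq gave 14 higher and 0 lower at 30 min (3.15% and 4.28%), 0 and 0 at 60 min (2.03% and 1.56%) and 1 and 3 at 120 min (7.23% and 4.85%). Across all genes above 8 CPM, Spearman's rho of transcript length and LTP change at 30 min was -0.31 by RNA-seq and 0.27 by TRAP-seq. Across the 75 members above that level it was -0.32 and 0.02. The part of length in the 30 min counts, here and below, was not tested. The median SE of a member's log2 change was 0.078, 0.063 and 0.128 by TRAP-seq and 0.054, 0.065 and 0.037 by RNA-seq, over the 73 to 75 members above 8 CPM. The highest SE of these members was 0.255, by TRAP-seq at 120 min. A call also needs a false discovery rate under 0.1. These SE therefore do not show that a change of 0.4 would have been called.

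The median log2 changes of the members were small, the largest in size being -0.11. By TRAP-seq the median was -0.10 at 30 min with 9 of 77 above 0 (51.1% of all genes), 0.04 at 60 min with 53 of 77 above 0 (50.7%) and -0.11 at 120 min with 12 of 77 above 0 (46.4%). By RNA-seq it was 0.06 at 30 min with 67 of 81 above 0 (50.1%), -0.03 at 60 min with 23 of 81 (49.8%) and -0.01 at 120 min with 34 of 82 (49.4%). Basal and LTP libraries did not overlap, with LTP higher and lower, for 3 and 13 members by TRAP-seq at 30 min (10.2% and 9.55% of all genes), 5 and 3 at 60 min (9.32% and 9.34%) and 2 and 2 at 120 min (10.7% and 7.89%). By RNA-seq this was so for 22 and 1 members at 30 min (6.02% and 6.39%), 0 and 1 at 60 min (4.57% and 4.11%) and 4 and 5 at 120 min (9.54% and 7.79%). With length and GC offsets the TRAP-seq medians were -0.05, 0.02 and -0.02. The RNA-seq medians with these offsets are not reported here. The direction of several medians turned on 1 library. Without basal replicate 1 the TRAP-seq median at 60 min was -0.02, and without basal replicate 3 that at 120 min was 0.03. Leaving out basal replicate 2 or 3 or LTP replicate 3 brought the RNA-seq median at 60 min to between 0.002 and 0.004. In TRAP-seq at 120 min it was -0.22 without basal replicate 2, and with library size without Rn45s 0.14, where the median of all genes was 0.24. Ribosomal proteins had TRAP-seq medians of -0.16, -0.07 and -0.16.

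**Figure D4:**
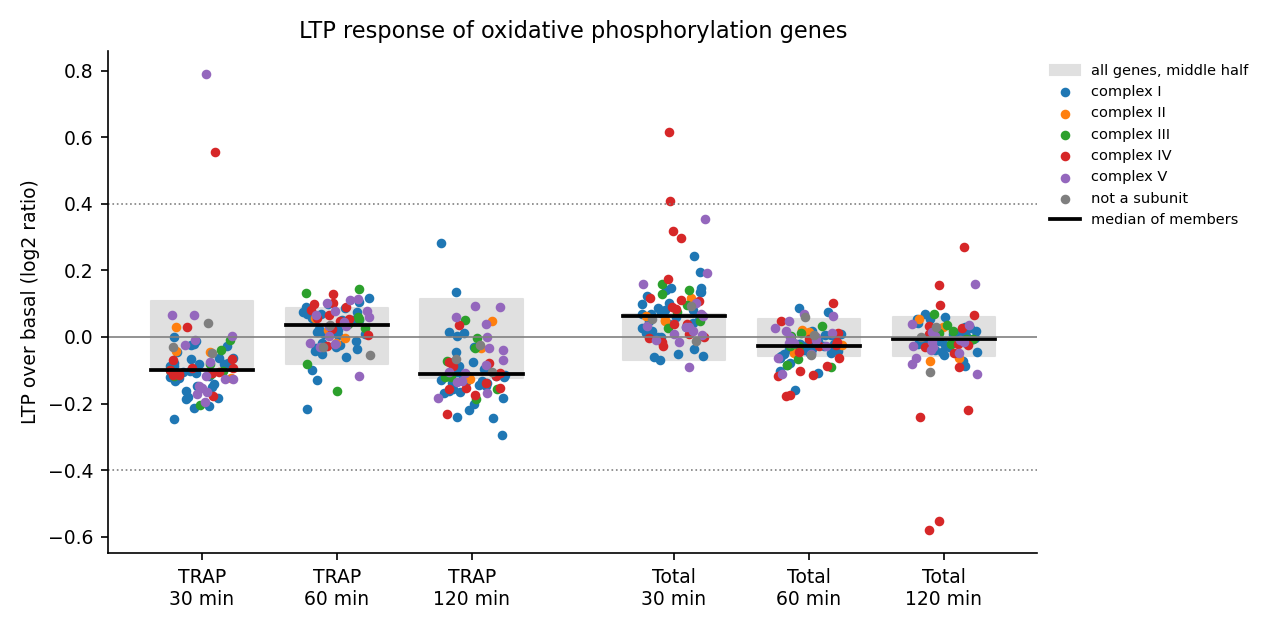
Log2 change with LTP (y axis) of each tested member, coloured by complex, for TRAP-seq and RNA-seq (Total) at 30, 60 and 120 min. Black lines are medians over the members, grey boxes span the quartiles of all genes and dotted lines mark the fold threshold. The medians lie between -0.11 and 0.06, and no member passes the study's criteria.

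Among members with small p, Ndufa10, a complex I accessory subunit, was lower in each LTP library by TRAP-seq at 120 min, with 4623, 4133 and 3955 normalized counts in basal and 3601, 3642 and 3495 in LTP slices (log2 change -0.24, adjusted p = 0.212, edgeR). Ndufs1 had the smallest p of the members above 0 there, with 0.13 (adjusted p = 0.563). Atp5d had a TRAP-seq change of 0.11 at 60 min (adjusted p = 0.314). Atp5l, the g subunit of ATP synthase, had 0.79 at 30 min (adjusted p = 0.319) from 7 to 25 reads per library, and 81.1% of its windows occur in other genes.

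By RNA-seq, Atp5e, the epsilon subunit of the ATP synthase stalk (chromosome 2, 174461072 to 174464105, minus strand), had the smallest p. At 30 min it had 1657, 1642 and 1775 normalized counts in basal and 1896, 2238 and 2334 in LTP slices. The groups did not overlap, and the log2 change was 0.35 ± 0.07 (adjusted p = 0.154, edgeR). DESeq2 gave an adjusted p of 0.00364, and the fit with length and GC offsets a change of 0.24 (adjusted p = 0.547). Without LTP replicate 1, the lowest of the LTP libraries, the change was 0.44 and was called. At 60 and 120 min the Atp5e changes were 0.05 and -0.06 with overlapping groups. The other members whose LTP libraries all lay above the basal ones included Ndufb2 (0.24), Cox7c (0.32), Atp5k (0.19) and Atp5g3 (0.16), none past the false discovery rate. The smallest p among members below 0 at 30 min was that of Ndufa10 (-0.07). At 60 min the smallest p in each direction were those of Ndufs7 (0.09) and Cox6c (-0.12), and at 120 min those of Cox6a1 (0.10) and Atp5j (-0.11), all inside the fold threshold.

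The response by TRAP-seq was also set against that by RNA-seq in 1 fit of the 12 libraries of a time. No member was called at any time by edgeR or DESeq2, where edgeR called 0.0522% of all genes higher and 0.013% lower at 30 min, 0.07% and 0.00636% at 60 min, and 0.169% and 0.0584% at 120 min. At 30 min 5 of 81 members were above 0 (49.4% of all genes) and the median difference was -0.17. With p under 0.05 before adjustment, 0 members were higher and 23 lower (4.79% and 4.78% of all genes). Over all genes the LTP change at 30 min ran with transcript length in opposite directions by TRAP-seq and RNA-seq. The part of length in this difference was not tested. Ndufa9, a complex I subunit at the junction of its arms, had 5130, 5367 and 5083 normalized counts by TRAP-seq in basal and 4679, 4270 and 4528 in LTP slices. By RNA-seq it had 2806, 2671 and 2798 in basal and 2933, 3063 and 3083 in LTP slices. The LTP libraries were the lower ones by TRAP-seq and the higher ones by RNA-seq, and the difference of the log2 changes was -0.35 ± 0.07 (adjusted p = 0.0928, edgeR), past the false discovery rate, as 0.0261% of all genes were in this direction, and inside the fold threshold. At 60 min the median difference was 0.05 with 62 of 82 members above 0 (50.9% of all genes), and 0 were higher and 1 lower before adjustment (2.55% and 3.44%). At 120 min it was -0.09 with 18 of 82 above 0 (48.9%), and 0 were higher and 3 lower (5.1% and 2.95%). Without basal TRAP-seq replicate 1 the first of these medians was 0.00, and without basal TRAP-seq replicate 3 the other was 0.02.

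Between times, the response to LTP gave no called member by edgeR in either population. By TRAP-seq 0.0538% of all genes were called higher and 0.0135% lower at 60 against 30 min, 0.471% and 0.0336% at 120 against 30 min, and 0.209% and 0.0269% at 120 against 60 min. By RNA-seq the shares were 0% and 0%, 0.704% and 0.019%, and 0.387% and 0%. With p under 0.05 before adjustment, TRAP-seq gave 1 member higher and 1 lower (2.13% and 2.09% of all genes), 1 and 1 (3.69% and 2.64%), and 1 and 0 (3.92% and 2.09%) in the same order. RNA-seq gave 0 higher and 14 lower at 60 against 30 min (5.2% and 3.37%), 0 and 11 at 120 against 30 min (5.56% and 3.23%), and 0 and 0 at 120 against 60 min (3.36% and 1.6%). DESeq2 called 1 lower by RNA-seq at 120 against 30 min, Atp5e, whose edgeR difference was -0.42 (adjusted p = 0.131). That call also came from the fit with the replicate as a block.

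The basal ratio of TRAP-seq over RNA-seq was lower at the later times in most members. It was lower at 120 than at 30 min in 73 of the 79 members tested at all times and lower at each step in 66. In a fit of the 18 basal libraries, chosen after the ratios had been seen, 38 of 82 members were lower at 120 against 30 min and none higher (DESeq2 1), where 4.74% of all genes were called lower and 3.7% higher. The median difference was -0.40, and 49 members passed the false discovery rate without the fold limit (9.36% of all genes). Ndufb6 had -0.71 ± 0.11 (adjusted p = 0.00123, edgeR), Ndufc2, a membrane-arm subunit, -0.71, Sdhd -0.44, Uqcrc2 -0.43 and Atp5e -0.79. None of the 7 nuclear-encoded core subunits of complex I was called, and their median was -0.18. Sdhb (-0.26) and Atp5d (-0.11) were not called either. Of the cytosolic ribosomal proteins 35 were lower.

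In the same fit 4 members were lower at 120 against 60 min and none higher, where 1.21% and 0.556% of all genes were: Ndufb6 (-0.44), Ndufc2 (-0.43), Cox6c (-0.58) and Atp5j (-0.46). Without the fold limit 6 were lower (1.86% of all genes). With the replicate as a block 24 were lower. The LTP libraries, whose TRAP-seq libraries of 120 min hold 0.13% to 1.58% Rn45s, gave 35 lower at 120 against 60 min and 27 lower at 120 against 30 min. Leaving out basal TRAP-seq replicate 2 of 120 min gave 0 lower at 120 against 60 min and 27 at 120 against 30 min, and leaving out its replicate 3 gave 35 and 49. The count of 4 moved to between 0 and 35 when any 1 of the 18 libraries was left out. The share of all genes called is not given for these alternative fits. Their counts therefore cannot tell a shift of the members from a shift of many genes. At 60 against 30 min no member was called by edgeR (1.86% of all genes higher and 0.0511% lower), and DESeq2 called 1 higher. Before adjustment 2 were higher and 13 lower at p under 0.05 (7.79% and 4.13% of all genes), and the median was -0.18. In the LTP libraries that median was 0.06.

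Of the pathway lists outside the members, 1 gene was called with LTP. Ppargc1b, a coactivator of mitochondrial biogenesis, was higher by TRAP-seq at 120 min with a log2 change of 0.47 ± 0.11 (adjusted p = 0.0703, edgeR). Ppargc1b was the only 1 of the 13 regulators called there, where 1.37% of all genes were called higher. It was 1 call among several lists, populations and times. Whether the lists exceed the share of all genes was not tested.

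The precision of single members differed. Ndufs5 had 0 or 1 reads per library at 30 min, and 36.4% of its windows occur in other genes. More than 50 percent of the windows of 3 members, Atp5g2, Atp5l and Cox7c, occur elsewhere, and 43 members share none. Exons of 21 members overlap a gene on the opposite strand. Among them are Ndufb6 and Uqcrc2, with 32.6% and 24.2% of their windows in other genes. Transcripts of Atp5g1 and Sdhc used for levels per length are long while shorter ones are annotated, which lowers their stated level.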

How the data were processed

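The authors removed ribosomal RNA, made unstranded libraries, mapped reads to mm10 with STAR and deposited raw read counts per gene symbol in 1 table for each time, which were used here. Versions of these tools are not given in the sources used here. A further 18 columns of per-sample values in each table (trimmed-mean scaled counts and log2 fold changes per replicate) and the authors' own fold changes and false discovery rates were not used. Of 24060 genes, 27 symbols had become dates. By Entrez ID 25 were recovered and the others left out (at most 0.0039% of a library). The time label of 1 basal TRAP-seq sample (30 min) goes against its title (60 min), which was followed. Counts were fitted per comparison with edgeR 4.0.16 in R 4.3.3 (TMM, filterByExpr, quasi-likelihood test, Benjamini-Hochberg adjustment over all genes), with the study's criteria. DESeq2 1.42.0, DESeq2 size factors, library size without Rn45s, no filter, no Rn45s, no fold limit, length and GC offsets, the replicate block and leaving out 1 library at a time were the alternatives. The fits were tested on simulated data. No 2 libraries held identical counts.

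Series text states that same-numbered basal and LTP libraries came from the same mice. After removal of group means they correlated at 0.36 to 0.71 in ribosome-bound RNA and at 0.11 to 0.51 in total RNA, and the correlations of TRAP-seq and RNA-seq libraries of a homogenate 0.17 to 0.54. Replicates are pools of 4 mice. Transcript lengths came from GENCODE M21 and promoters from RefSeq. Members and lists were chosen with earlier results of these data known. Named genes are, per comparison, up to 5 called members per direction with the smallest p, otherwise the 1 with the smallest p, together with isoforms and partners, c subunits, complex II, complex I core subunits, symbols that are no subunits, the 2 members of each complex with the highest counts, and up to 3 called genes per direction of the other lists. Results of some genes named by this rule are not reported here. Python 3.11.15 with pandas 2.3.3 read the tables, scipy gave the intervals and matplotlib 3.10.9 drew the figures.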

Additional observations from a re-analysis of the deposited data

Results flagged for a closer look

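A difference between populations or times, by a test of the difference itself, was found for 3 sets of values, and no cause was tested. The LTP response of 1 member differed between TRAP-seq and RNA-seq at 30 min at a false discovery rate under 0.1 (0.0261% of all genes in this direction), Ndufa9 with -0.355 on the log2 scale. The basal ratio of TRAP-seq over RNA-seq was lower at 120 than at 30 min, at a false discovery rate under 0.1 and without a fold limit, for 49 members (9.36% of all genes). Of these, Ndufb6 (-0.713) and Ndufc2 (-0.7106) had the smallest p and not the largest differences. The ratio was lower at 120 than at 60 min for 6 members (1.86% of all genes), of which Sdhd (-0.3526) and Ndufb6 (-0.4396) had the smallest p and Cox6c (-0.58) the largest difference. The fit of the ratio between times was chosen after the ratios had been seen. With the fold limit, 0 to 35 members were lower at 120 against 60 min when 1 library was left out. Time and read type (single at 30 min, paired later) cannot be told apart in the difference from 30 min, and the basal TRAP-seq libraries of 120 min hold 40.6% to 61.4% Rn45s reads.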

How the results depend on the processing

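The higher and lower counts of the basal ratio at 30 and 60 min stayed within 1.5 times of those reported under every alternative fixed at the start. Counts of called members moved as follows, and the cause was not tested. In this section no share of all genes called is given for the alternative fits. Its counts therefore cannot tell a shift of the members from a shift of many genes. Without a fold limit TRAP-seq had 1 member lower with LTP at 30 min and 1 at 60 min, and there was 1 in the TRAP-seq minus RNA-seq response at 30 min. With library size without Rn45s, the basal ratio at 120 min gave 6 higher and 10 lower, 2 members were higher in the TRAP-seq minus RNA-seq response at 120 min, 2 in the TRAP-seq response at 120 against 30 min and 2 at 120 against 60 min, and the basal ratio gave 66 lower at 120 against 30 min and 49 at 120 against 60 min. With length and GC offsets, 24 were higher at 120 min, and the ratio between times gave 1 higher and 1 lower (60 against 30 min), 1 higher and 19 lower (120 against 30 min) and 0 lower (120 against 60 min). DESeq2 gave 1 higher at 60 against 30 min, 1 higher at 120 against 30 min, 11 lower at 120 against 60 min and 1 lower in the RNA-seq response at 120 against 30 min, as did no filter, which gave 20 lower at 120 against 60 min. DESeq2 size factors gave 0 and the tables without Rn45s 1 lower there. The LTP libraries, an alternative chosen after seeing the data like the fits of the ratio between times, gave 2 lower at 120 min and 35 lower at 120 against 60 min.

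With the replicate block, 24 members were lower at 120 against 60 min and 1 lower in the RNA-seq response at 120 against 30 min. With the block and the length and GC offsets, 1 member was higher with LTP by TRAP-seq at 30 min, 24 were higher at 120 min, and the ratio between times gave 1 higher and 1 lower, 1 higher and 20 lower, and 2 lower. No other count of calls was moved by the block beyond 1.5 times.

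Leaving out 1 library at a time, the basal ratio gave 65 to 66 higher and 4 to 6 lower at 30 min, 56 to 65 higher at 60 min, and 30 to 50 higher and 4 to 6 lower at 120 min. RNA-seq with LTP at 30 min gave 0 to 1 higher (without LTP replicate 1), the RNA-seq response at 120 against 30 min 0 to 1 lower, and the ratio between times 0 to 1 higher at 60 against 30 min (without basal TRAP-seq replicate 3 of 120 min), 27 to 49 lower at 120 against 30 min and 0 to 35 lower at 120 against 60 min, where each of the 18 libraries left out moved the count by over 1.5 times. The basal ratio at 60 min stayed at 4 lower, and all other counts stayed at 0. Counting depth limits the tissue-restricted isoforms, Ndufs5 and Atp5l, and 3 replicates limit the rest.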
